A study of Mus musculus with 8 samples.

Results

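Chromatin accessibility around 10 genes of the glycolytic pathway (Hk1, Hk2, Gpi1, Pfkl, Pfkp, Aldoa, Gapdh, Pgk1, Eno1 and Ldha) was examined in BV2 cells, an immortalised mouse microglial line. ATAC-seq, in which the transposase Tn5 inserts adapters into open chromatin, had been run on 8 libraries, and each library came with its own list of called peaks. Peaks that shared at least 1 bp were merged over the lists into 40784 regions. Regions within 10 kb of the RefSeq gene bodies (GRCm38.p6) of the 10 genes were taken, which gave 38 regions, and 10 of the 49939 genes in the annotation. The members were taken by gene name.

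The 4 groups held 2 biological replicates each. In monoculture, BV2 cells were grown alone, and in co-culture they were added to GL261 mouse glioma cells at 1 BV2 cell to 2 GL261 cells. Both cultures were then held for 16 h at 21% oxygen (normoxia) or below 0.1% oxygen (hypoxia). All cells were fixed with formaldehyde and sorted as positive for the leukocyte marker CD45 or for GFP, and 50000 cells went into each reaction. Which sort was used for which library is not given in the sources used here. All 8 libraries are labelled as 1 cell line, and the share of GL261 cells left in the co-culture libraries is not known here. In this account, values are given in a fixed order of libraries: monoculture normoxia, monoculture hypoxia, co-culture normoxia and co-culture hypoxia, with replicate 1 before replicate 2.

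Glycolysis splits glucose into pyruvate in the cytoplasm and yields ATP without oxygen, and lactate dehydrogenase then turns pyruvate into lactate and restores NAD+. When oxygen is scarce, the transcription factor HIF-1 accumulates and binds sites with the core letters ACGTG or GCGTG, and genes of this pathway, Ldha and Pgk1 among them, are textbook HIF-1 targets. Microglia and macrophages are known to lean on glycolysis when activated.

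The bases before the start sites are shown for 5 members whose start regions behaved differently in the peak lists described below. They were called in 7 libraries at Hk2 and Pgk1, in 4 at Gpi1 and Ldha, and in 3 at Gapdh. Each sequence is the 250 bases before a RefSeq start (GRCm38.p6), written 5′ to 3′ on the strand of the gene, and capitals mark ACGTG or GCGTG or their reverse complements CACGT and CACGC.
Hk2 (chr6:82774455-82774704, minus strand): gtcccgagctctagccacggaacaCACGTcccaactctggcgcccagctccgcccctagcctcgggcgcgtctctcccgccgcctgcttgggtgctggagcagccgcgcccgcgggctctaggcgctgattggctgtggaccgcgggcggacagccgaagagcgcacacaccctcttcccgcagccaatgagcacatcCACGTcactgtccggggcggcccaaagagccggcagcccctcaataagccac
Gpi1 (chr7:34230337-34230586, minus strand): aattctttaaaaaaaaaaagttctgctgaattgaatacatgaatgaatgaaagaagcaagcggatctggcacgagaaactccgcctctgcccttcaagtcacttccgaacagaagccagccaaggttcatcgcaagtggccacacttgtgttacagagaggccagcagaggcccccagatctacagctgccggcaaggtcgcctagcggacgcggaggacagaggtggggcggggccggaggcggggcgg
Gapdh (chr6:125165774-125166023, minus strand): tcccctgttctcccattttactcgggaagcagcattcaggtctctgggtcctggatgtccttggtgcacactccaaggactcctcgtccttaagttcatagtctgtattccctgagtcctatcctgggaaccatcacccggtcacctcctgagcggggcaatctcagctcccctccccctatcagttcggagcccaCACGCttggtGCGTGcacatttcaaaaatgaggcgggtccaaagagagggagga
Pgk1 (chrX:106186850-106187099, plus strand): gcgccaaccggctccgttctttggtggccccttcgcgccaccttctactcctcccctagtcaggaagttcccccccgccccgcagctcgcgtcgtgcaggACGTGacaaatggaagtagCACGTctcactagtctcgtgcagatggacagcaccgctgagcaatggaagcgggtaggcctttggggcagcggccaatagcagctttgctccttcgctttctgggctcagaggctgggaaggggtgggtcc
Ldha (chr7:46845554-46845803, plus strand): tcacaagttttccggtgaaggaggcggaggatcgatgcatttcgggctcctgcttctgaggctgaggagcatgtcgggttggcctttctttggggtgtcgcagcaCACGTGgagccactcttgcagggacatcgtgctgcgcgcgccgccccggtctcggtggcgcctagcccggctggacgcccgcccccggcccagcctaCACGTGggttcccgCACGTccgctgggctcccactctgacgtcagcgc
These letters were searched on both strands. Over all 32851 RefSeq windows of the same length, ACGTG was found in 16.6%, GCGTG in 28.2% and either in 38.6%. The 10 genes have 16 such windows, since some have several starts, and 13 of them (81.2%) held at least 1 match, at 9 of the 10 genes. Windows of neighbouring Aldoa starts, and of neighbouring Eno1 starts, overlap and share matches. Gpi1 was the member without a match. The comparison with all windows was not matched for base composition, and the 13 windows held 54.4% to 71.2% G or C. Counted to the first base of a match, Hk2 held ACGTG at 226 and 52 bases before its start, and Pgk1 at 150 and 131 bases. The window of Ldha held 5 matches, of which 4 are the strands of 2 palindromes, CACGTG, and at least 5 matches were found in 1.01% of all windows. CACGTG, the E-box, was in no other window of the 10 genes, against 6.02% of all windows. Gapdh held GCGTG at 54 and 44 bases before its start. GGGCGG, the GC box, was in 9 of the 16 windows, against 32.7% of all. TGANTCA, the AP-1 motif, was in 1 (6.75% of all), and GAGGAAGT, the PU.1 motif, in 0 (2.44% of all). A match says only that the letters are present.

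The lists differed in length, from 9910 peaks in monoculture normoxia replicate 2 to 29658 in co-culture hypoxia replicate 1. The background at peaks, solved from each deposited fold and p-value, lay most often at 0.758 to 1.448 fragments, and the median peak held 18 to 30 fragments at its summit. All 40784 regions were called in 30.8% and 23.1% of cases in the 2 monoculture normoxia libraries, in 57.3% and 62.3% in monoculture hypoxia, in 51.7% and 51.5% in co-culture normoxia, and in 70.7% and 51.5% in co-culture hypoxia. The short monoculture normoxia lists therefore stand on 1 side of several comparisons below. To set lists of 1 length side by side, the 9910 peaks with the highest −log10 p of each were also compared, called equal-number lists here. Of 12 microglia and macrophage markers, 1, 3, 7, 7, 6, 7, 8 and 6 had a peak within 1 kb of their start, or of an end for genes with no start entry. Ptprc, which encodes CD45, had one in all 8 libraries, and Csf1r, Aif1, Itgam and C1qa had one in none. Of 12 glioma and glial markers, 0 were called in the 4 monoculture libraries, and 2, 0, 2 and 2 in the co-culture libraries, namely Sox2, Nes and S100b. Col1a1, 1 of 6 mesenchymal markers, was called in the same 3 co-culture libraries.

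The 38 regions were called at a somewhat higher rate than all regions in 7 of the 8 libraries. Of them 17, 10, 24, 23, 24, 27, 34 and 28 were called, which is 44.7%, 26.3%, 63.2%, 60.5%, 63.2%, 71.1%, 89.5% and 73.7%. Monoculture hypoxia replicate 2 was the library in which their share lay below that of all regions. In equal-number lists the count was 15, 10, 11, 11, 15, 12, 13 and 14, while all regions stood at 23.1% to 24.2%, a share that the equal length of these lists largely fixes. The 38 regions differ in kind: 12 cover or lie within 1 kb of a start of the member, 12 lie elsewhere over the gene body, 7 upstream and 7 downstream. Of these regions 6 lie within 1 kb of the start of another gene. A peak in all 8 libraries was found for 8 regions (21.1%, against 15.6% of all regions), and in 1 library for 4 (10.5%, against 26.7%). A further 6 (15.8%) were missing from monoculture normoxia replicate 2 alone, against 6.02% of all regions. The tables used here give no exons, so a region is placed in a gene body without saying whether it is exonic or intronic.

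**Figure D1:**
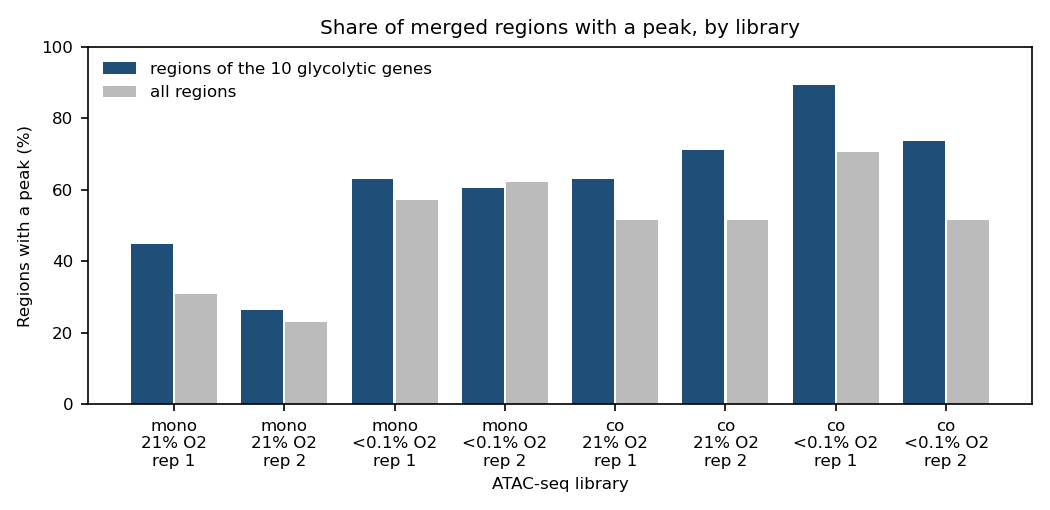
Share of merged regions with a peak in each library, in percent, for the 38 regions of the 10 glycolytic genes (blue) and for all 40784 regions (grey). Both shares were lowest in the 2 monoculture normoxia libraries, at 44.7% and 26.3% for the glycolytic regions, and the glycolytic share was highest in co-culture hypoxia replicate 1, at 89.5%.

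**Figure D2:**
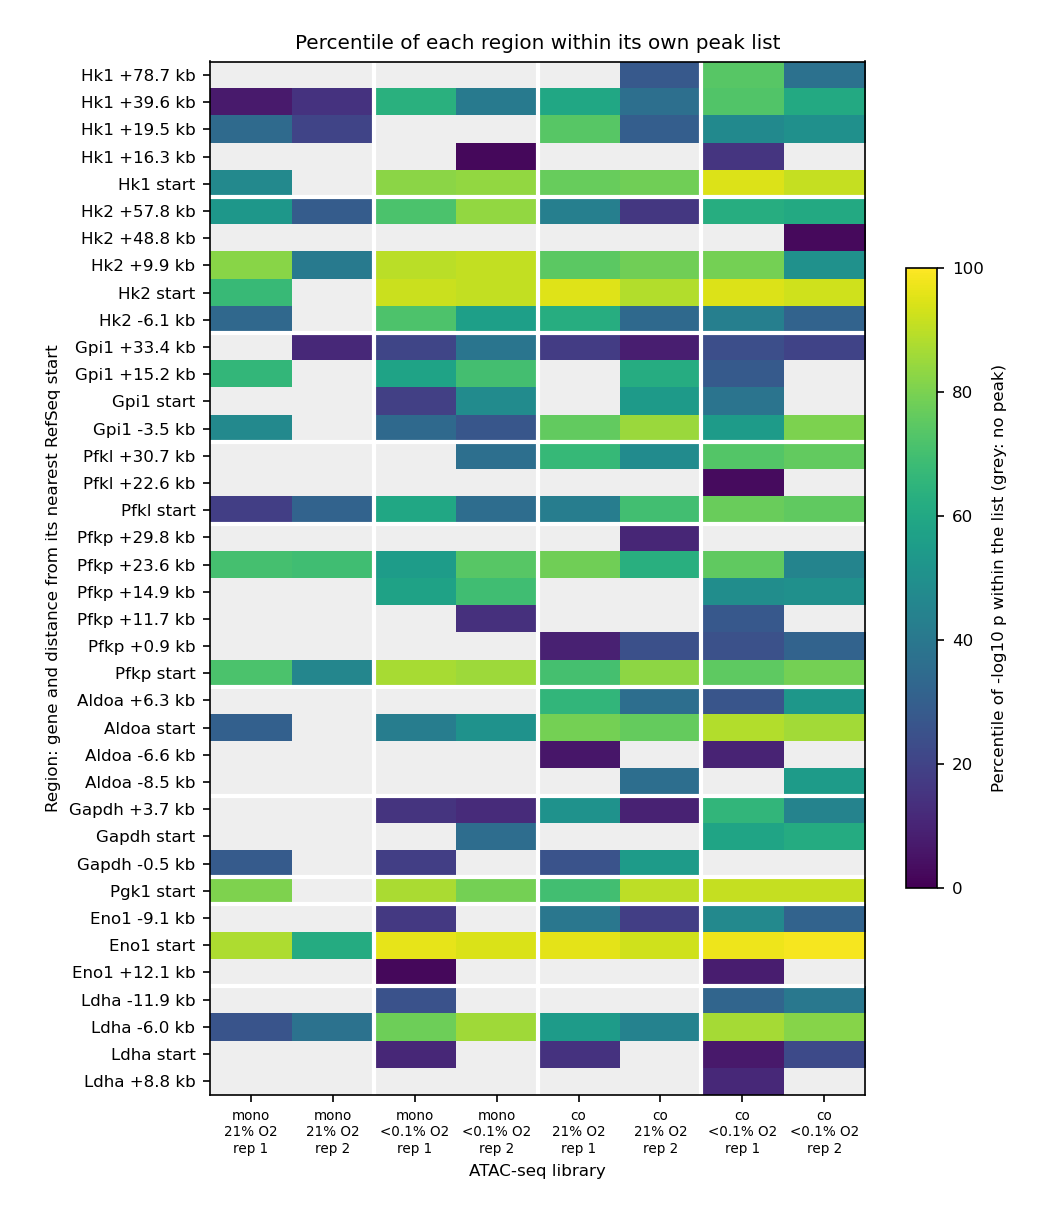
Percentile of −log10 p of each of the 38 regions within its own peak list (0 to 100), by region (vertical, with the distance in kb from the nearest RefSeq start, positive into and past the gene) and library (horizontal). Grey marks a library without a peak, and percentiles of different lists are not on a common scale. The Eno1 start lay between 61.6 and 98.5 in the 8 libraries.

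Most of the 10 genes had a peak at their start in most libraries. A peak within 1 kb of a start was called in 8, 3, 10, 9, 9, 9, 10 and 9 of the 10 genes. Among 17491 protein-coding genes with a start entry the share was 28.4%, 23.3%, 38.8%, 38.7%, 41.6%, 43.9%, 46.4% and 44.0%. For 8 of the 10 genes the start had a peak in at least 7 libraries, against 28.0% of coding genes, and no member lacked one throughout, against 49.4%. Gapdh counts among the 8 through 2 separate regions near its start. In equal-number lists the number of member genes was 7, 3, 6, 5, 6, 8, 7 and 8, against 23.7%, 23.3%, 20.3%, 18.4%, 26.1%, 29.3%, 25.4% and 30.6% of coding genes. Monoculture normoxia replicate 2, the shortest list, had start peaks at Pfkl, Pfkp and Eno1 only. For each region with a peak, the percentile is the share of peaks of the same list with a lower −log10 p. It describes a place within 1 list, and percentiles of lists of different length show no change. The median percentile of the start regions of the 10 genes was 57.2, 46.0, 71.2, 78.9, 70.0, 77.3, 77.2 and 82.6. Over all start regions the medians were 60.9, 61.3, 60.2, 58.4, 65.6, 69.0, 68.9 and 72.0. The member start regions ranked below them in monoculture normoxia and above them in the 6 other libraries. The member medians rest on 8, 3, 10, 9, 10, 10, 11 and 10 regions with a peak, so the regions behind them differ between libraries.

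**Figure D3:**
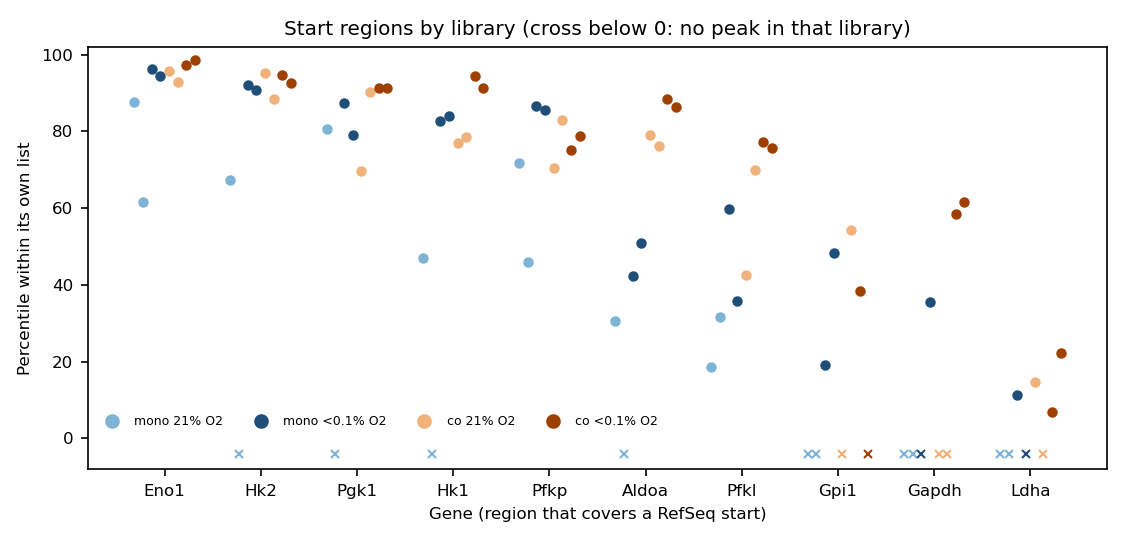
Percentile within its own list (vertical, 0 to 100) of the region over a RefSeq start of each gene (horizontal), with 1 point per library coloured by group and a cross below 0 for a library without a peak there. Eno1, Pfkl and Pfkp have 8 points each, while Gpi1 and Ldha have 4 and Gapdh 3.

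Hexokinases trap glucose in the cell as glucose 6-phosphate. Hk1, the widely expressed form, spans chr10:62268855-62379920 on the minus strand, and its called start region (chr10:62340115-62340896) lies at the start at position 62340421 and also at the start of the antisense gene Hk1os. This start had a peak in every library but monoculture normoxia replicate 2, at the percentiles 47.1, 82.6 and 83.9 in monoculture and 76.9, 78.4, 94.6 and 91.4 in co-culture. Its summit held 16 fragments in monoculture normoxia replicate 1, then 50 and 57 in monoculture hypoxia, 40 and 47 in co-culture normoxia, and 104 and 90 in co-culture hypoxia. The other annotated start of Hk1, at 62379908, had no peak over the 250 bases before it in any library. A region 19.5 kb into the gene (chr10:62319923-62320951) had a peak in every library except those of monoculture hypoxia, at 34.8 and 20.7 in monoculture normoxia and at 74.0, 29.9, 47.4 and 50.2 in co-culture. Only 17 of all regions had this pattern, and it is the one place near the 10 genes where the longer hypoxic monoculture lists lacked a peak that both normoxic monoculture lists had. The regions of Hk1 not yet named are one at 39.6 kb called in all 8 libraries, one at 16.3 kb called in 2, at 2.22 and 15.6, and one past the gene inside Tacr2 called in 3 co-culture libraries, at 27.8, 74.2 and 37.4.

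Hk2, the hexokinase known to be induced by low oxygen, spans chr6:82725025-82774454 on the minus strand. Its start region (chr6:82774295-82775053) was absent from monoculture normoxia replicate 2 and stood at 67.3, 92.1, 90.9, 95.2, 88.4, 94.6 and 92.7 in the others. The 2 copies of ACGTG printed above lie inside this region. A region 9.9 kb into the gene (chr6:82763940-82764562) was called in all 8 libraries, at 82.3, 41.0, 89.6, 90.9, 74.7, 78.1, 79.2 and 50.7. Another region called in all 8 (chr6:82715727-82716640) lies 8.4 kb past the 3′ end of Hk2, over the non-coding gene Gm32480, and cannot be assigned to Hk2 from position. A region 6.1 kb before the start was called in 7 libraries, at 31.7 to 72.0, and one near the 3′ end in co-culture hypoxia replicate 2 alone, at 2.70.

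Gpi1, which turns glucose 6-phosphate into fructose 6-phosphate, spans chr7:34201327-34230336 on the minus strand. Its start region (chr7:34230178-34230539) was called in 4 libraries, at the percentiles 19.1 and 48.3 in monoculture hypoxia, 54.3 in co-culture normoxia replicate 2 and 38.3 in co-culture hypoxia replicate 1. It was in none of the equal-number lists. A region 3.5 kb upstream of Gpi1 (chr7:34233820-34235137), over Gm12762 and Gm12758, was called in 7 libraries, at 26.7 to 85.1, and one 15.2 kb into the gene in 5, at 28.5 to 70.2. The fourth region of Gpi1, 4.4 kb past its 3′ end, covers the start of Pdcd2l and stood at 8.27 to 38.7 in 7 libraries.

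Phosphofructokinase commits the sugar to glycolysis, and Pfkl and Pfkp encode its liver and platelet forms. The Pfkl start (chr10:78009266-78010120) had a peak in all 8 libraries, at 18.6, 31.7, 59.7, 35.8, 42.5, 69.9, 77.2 and 75.7. The Pfkp start (chr13:6648382-6649370) was also called in all 8, at 71.9, 46.0, 86.7, 85.5, 70.4, 82.8, 75.2 and 78.9, and was in all 8 equal-number lists. Pfkp had 6 regions, the most of the 10 genes. They include one at 23.6 kb into the gene (chr13:6624132-6625131) called in all 8 libraries, at 45.0 to 78.3. Weak regions of the pair, at 3.09 in Pfkl and at 10.7 to 27.5 in Pfkp, were called in 1 or 2 libraries each.

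Aldolase splits fructose 1,6-bisphosphate, and Aldoa encodes its main form outside liver and brain. Aldoa lies at chr7:126795234-126800994 on the minus strand, and the called start region (chr7:126798978-126799758) covers the starts at 126799254 and 126799178. It was missing from monoculture normoxia replicate 2 and stood at 30.6, 42.4 and 51.0 in the other monoculture libraries and at 79.1, 76.2, 88.5 and 86.3 in co-culture. The summits held 14, 27 and 32 fragments in monoculture and 41, 45, 78 and 74 in co-culture. These are places and summits in lists of different length, and the ranks tested below give the comparison. Regions 6.1 and 8.0 kb upstream of the annotated gene were each called in 2 co-culture libraries and in no monoculture library, at 6.09 and 10.1 and at 36.3 and 54.9.

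Gapdh, which makes NADH as it oxidises glyceraldehyde 3-phosphate, had peaks near its start at alternative positions. Over chr6:125161852-125166467 (minus strand, start at 125165773), 2 separate regions lie near the start. The region over the start (chr6:125165526-125166012) had peaks in monoculture hypoxia replicate 2 and in both co-culture hypoxia libraries, at the percentiles 35.6, 58.5 and 61.7. Their summits lay at -28, 2 and 75 bp from the start. The region upstream of the start (chr6:125166279-125166842) had peaks in monoculture normoxia replicate 1, monoculture hypoxia replicate 1 and both co-culture normoxia libraries, at 28.6, 18.7, 25.7 and 54.8. Their summits lay at -843, -845, -721 and -767 bp. Each of 7 libraries thus had a peak in 1 of these regions and not in the other, and monoculture normoxia replicate 2 had neither. In co-culture this division follows oxygen in both replicates, and in monoculture hypoxia the replicates are on opposite sides. The peaks at Gapdh lay over a local background above the commonest value of every list, of 2.98 to 20.04 fragments, with folds of 2.77 to 4.78 and at most 79 fragments at a summit. Mouse chromosomes carry processed copies of Gapdh, and how reads with several alignments were treated is not given in the sources used here, so peaks over its transcribed bases are uncertain.

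**Figure D4:**
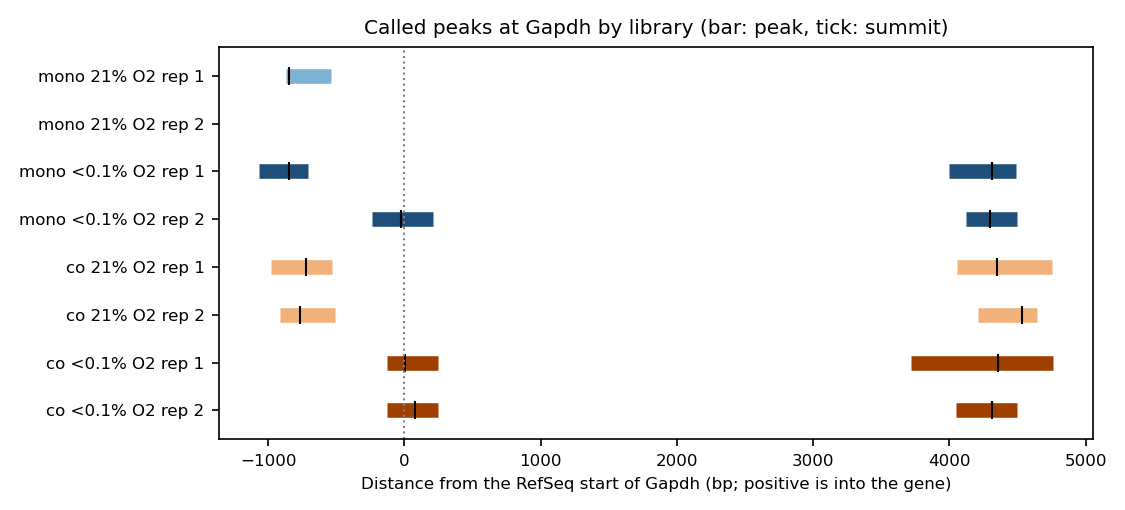
Called peaks at Gapdh in each library, as bars from peak start to peak end with a tick at the summit, by distance in bp from the RefSeq start (negative before the start, positive into the gene). Peaks near the start fall either around it, with summits at -28 to 75 bp, or upstream, with summits at -845 to -721 bp, and no library has both.

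Pgk1, the kinase that gives the first ATP of the pathway, lies on chromosome X (chrX:106187100-106203699, plus strand) and had a single region, over its start (chrX:106186511-106187322). It was called in 7 libraries, at 80.5, 87.5 and 78.9 in monoculture and 69.6, 90.2, 91.3 and 91.3 in co-culture, and was again missing from monoculture normoxia replicate 2. Its 2 copies of ACGTG lie within this region. Eno1, the enolase that makes phosphoenolpyruvate, had a start that ranked highest of the 10 in each library (chr4:150236228-150237419, plus strand). It was called in all 8 libraries, at 87.6, 61.6, 96.2, 94.5, 95.7, 92.9, 97.4 and 98.5, with 43 and 30 summit fragments in monoculture normoxia, 115 and 106 in monoculture hypoxia, 94 and 99 in co-culture normoxia, and 170 and 203 in co-culture hypoxia. A region 9.1 kb before Eno1 was called in 5 libraries, at 16.5 to 47.3, and one 0.5 kb past it in 2, at 2.30 and 7.89.

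Ldha, the subunit of lactate dehydrogenase that favours lactate production, had a start region (chr7:46844932-46845851, plus strand) that was called in 4 libraries and low in their lists, at 11.2 in monoculture hypoxia replicate 1, 14.8 in co-culture normoxia replicate 1, and 6.97 and 22.3 in co-culture hypoxia. In the same order, the summits lay at -794, -47, -652 and -150 bp from the RefSeq start, so not every peak was centred near it. The strong region near Ldha lies 6.0 kb before its first start with a RefSeq start entry and 2.5 kb before the annotated gene body, over no other annotated gene (chr7:46838254-46839768, 1515 bp wide). That upstream region had a peak in all 8 libraries, at 25.98 and 37.6 in monoculture normoxia, 77.8 and 85.7 in monoculture hypoxia, 55.0 and 44.5 in co-culture normoxia, and 86.5 and 81.9 in co-culture hypoxia. Its summits held 12, 15, 52, 64, 25, 23, 74 and 62 fragments. These counts are not scaled for library depth. All 4 hypoxic values lay above all 4 normoxic values, as they also did at the Eno1 start. The local background at the upstream region of Ldha was also higher in hypoxia, at 6.26 to 7.504 fragments against 1.27 to 2.61 in normoxia. The last region, 0.2 kb past the gene and over Gm39011, was called in co-culture hypoxia replicate 1 alone, at 11.4.

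Which regions near the glycolytic genes were called in hypoxia but not in normoxia was asked next. A region was counted as gained when every library of the first group and none of the second had a peak, and as lost in the reverse case. In monoculture, 3 of the 38 regions were gained with hypoxia (7.89%, against 17.7% of all regions), and 1 was lost (2.63%, against 0.179% of all). The gained regions were the Gpi1 start, a region at the 3′ end of Gapdh that also overlaps Iffo1 (chr6:125161012-125162053), and a region 14.9 kb into Pfkp. The lost region was that in Hk1 at 19.5 kb. In co-culture, 3 were gained (against 6.09% of all), namely the Gapdh start region, the region in Pfkp, and a region 11.9 kb before the Ldha start (chr7:46833385-46833881). The Gapdh upstream region was lost (1 of 38, against 2.05% of all). The gained share in monoculture thus lay below the background share. With 1 library fewer on a side the rule is easier to meet: 10 regions (26.3%, against 11022 of the 40784) were gained in monoculture without monoculture normoxia replicate 1. Without hypoxic replicate 1 or 2 of monoculture, 7 were gained (18.4%, against 12313 and 10594 of the 40784). In co-culture 8 were gained without co-culture hypoxia replicate 2 (21.1%, against 20.6% of all), and 2 were lost without co-culture normoxia replicate 1 (5.26%, against 6.82% of all).

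Pfkp held the only region gained with hypoxia in both cultures (1 of 38, 2.63%, against 2.08% of all regions). It lies at chr13:6633518-6633900, inside the gene and also inside the non-coding gene Gm35730. Its percentiles were 57.7 and 69.3 in monoculture hypoxia and 49.1 and 50.1 in co-culture hypoxia, with 45, 59, 43 and 36 summit fragments, and no normoxic library had a peak. Without either monoculture hypoxia library, 2 regions were gained in both cultures (5.26%, against 2.84% of all without replicate 1 and 2.69% without replicate 2). None was lost in both cultures (0.0196% of all). The region was in 1 of the 8 equal-number lists, so it was not called there. In equal-number lists 0 of the 38 regions were gained with hypoxia in monoculture (3.59% of all regions), in co-culture (2.64%) or in both (0.52%), and the Hk1 region at 19.5 kb was again lost in monoculture (1 of 38, against 2.49% of all). There, 0 were lost with hypoxia in co-culture (2.78% of all) or in both cultures (0.436%). Lists thinned to the lowest background coverage gave the same 3 and 3 gained regions as the full lists (16.5% and 5.97% of all). With 2 libraries against 2 an exact permutation test cannot go below 0.333, and with 36 relabellings within culture or oxygen level not below 0.0556, so presence was not tested region by region.

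Strength was compared in the regions called in all libraries, where ranks have a common basis. The 6375 regions with a peak in all 8 lists were ranked by −log10 p in each library, ranks were turned into normal scores (0 at the middle rank, 1 unit per SD), and limma was fitted to the 4 groups with Benjamini-Hochberg adjustment over the 6375 regions at 0.05. Of the 38 regions, 8 could be tested, and these are by construction the steadily called ones. With hypoxia, averaged over cultures, 3 of the 8 ranked higher (background 4.83% of regions tested) and 0 ranked lower (5.25%). With a replicate block in the fit, 1 of the 8 ranked higher, the region upstream of Ldha, where 602 of the 6375 passed in either direction. The difference was positive for 7 of the 8, with a median of 0.59, against 49.65% of all regions and a median of -0.002. When regions were ranked by fold in place of −log10 p, the median over the 8 was 0.112. The count of 3 fell to 0 without monoculture hypoxia replicate 1 or 2, co-culture normoxia replicate 2, or co-culture hypoxia replicate 1 or 2. In these 5 fits, in the same order, the calls over all regions in either direction fell from 643 to 0, 70, 65, 26 and 47. None of these differences passed the test in monoculture alone, where limma called 0 of 6375 regions and 1320 had an unadjusted p below 0.05.

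The upstream region of Ldha had the smallest adjusted p of the 8. Among the shared regions it stood at the percentiles 9.08 and 19.7 in monoculture normoxia, 45.9 and 58.6 in monoculture hypoxia, 15.2 and 8.42 in co-culture normoxia, and 59.7 and 60.6 in co-culture hypoxia. All 4 hypoxic values lay above all 4 normoxic values. The mean score rose from -1.15 to 0.157, a difference of 1.31 ± 0.207 (SE), with a 95% interval of 0.844 to 1.77 (limma, adjusted p = 0.0134). The difference was 1.15 ± 0.293 in monoculture (limma, adjusted p = 0.0835) and 1.46 ± 0.293 in co-culture (limma, adjusted p = 0.0493), and the interaction of oxygen with culture was 0.308 ± 0.415 (limma, adjusted p = 0.833). When regions were ranked by the deposited fold over local background in place of −log10 p, the difference was 0.411 and did not pass (limma, adjusted p = 0.466), and the regions past Hk2 and inside Hk1 then had the larger differences. Leaving out 1 library gave differences of 1.10 to 1.39. The adjusted p of limma was then 0.0181, 0.0198 and 0.0272 without monoculture normoxia replicate 1, monoculture normoxia replicate 2 and co-culture normoxia replicate 1. It was 0.0700 and 0.0543 without monoculture hypoxia replicates 1 and 2, 0.0548 without co-culture normoxia replicate 2, and 0.0594 and 0.0526 without co-culture hypoxia replicates 1 and 2.

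The other regions that passed were near hexokinase genes and closer to the threshold. The region 39.6 kb into Hk1 (chr10:62300025-62300778) stood at 0.714, 3.56, 27.6, 8.63, 19.0, 5.28, 35.7 and 31.6 among the shared regions, so the oxygen groups overlapped across cultures but not within either. Its score rose by 0.987 ± 0.267 (SE; limma, adjusted p = 0.0460), and no leave-one-out fit kept the call (differences of 0.743 to 1.19, adjusted p 0.05003 to 0.162 over the 8 libraries). The region past the 3′ end of Hk2, over Gm32480, stood at 31.4, 12.3, 37.3, 54.6, 8.28, 0.533, 23.6 and 31.4. It too overlapped across cultures, and its score rose by 1.04 ± 0.290 (SE; limma, adjusted p = 0.0493). That call was kept without monoculture normoxia replicate 1 (0.0421) or co-culture normoxia replicate 1 (0.0313) and ended without any of the other libraries (0.118 to 0.146), with differences of 0.742 to 1.32 over the 8 fits. Ranked by fold, the differences were 0.926 for Hk1 and 1.165 for Hk2 and neither passed (limma, adjusted p = 0.151 and 0.0917), where 54 of all 6375 regions passed in either direction, against 643 ranked by −log10 p.

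**Figure D5:**
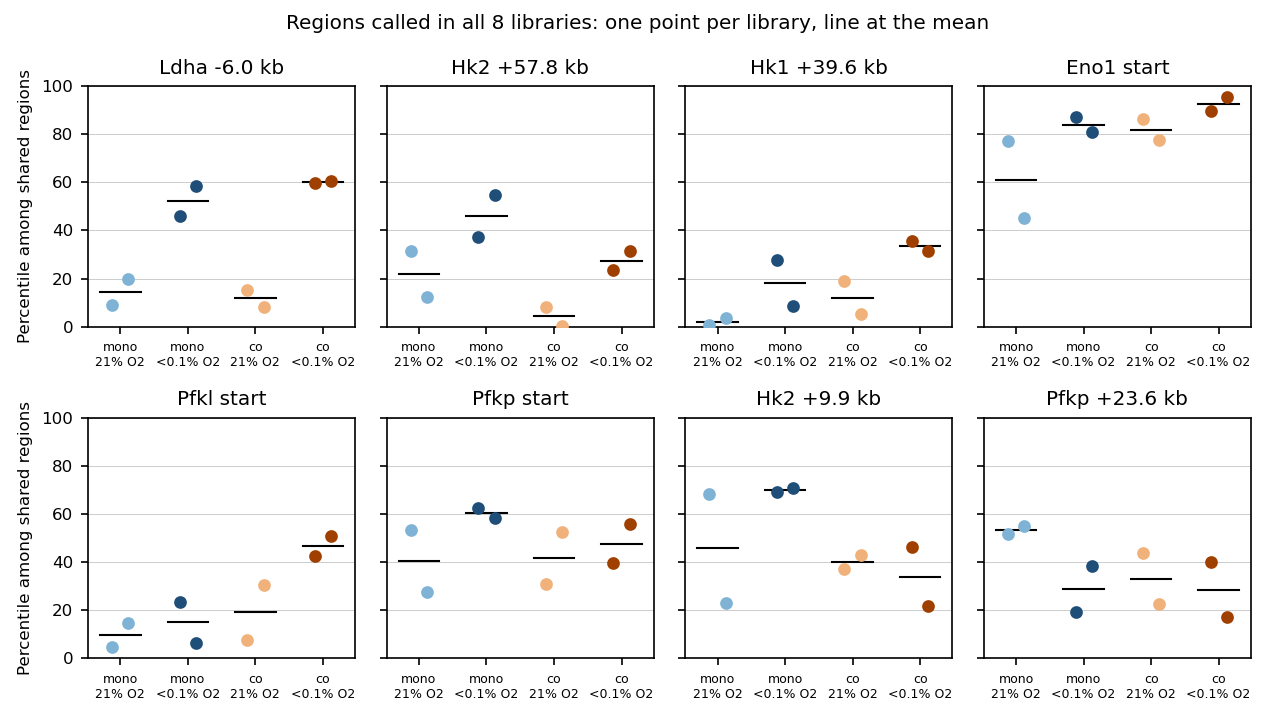
Percentile of −log10 p among the 6375 regions called in all 8 libraries (vertical, 0 to 100) for the 8 regions of the glycolytic genes among them, by group, with 1 point per library and a line at the group mean. At Ldha -6.0 kb the 4 hypoxic libraries lie between 45.9 and 60.6 and the 4 normoxic ones between 8.42 and 19.7, while at the Eno1 start and the Pfkp start the oxygen groups overlap.

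The 3 start regions in the test did not pass for hypoxia in the fit of all 8 libraries. The Eno1 start stood at 77.0, 45.3, 87.1, 80.9, 86.1, 77.7, 89.7 and 95.6, with a difference of 0.626 ± 0.243 (SE; limma, adjusted p = 0.123). Without monoculture normoxia replicate 1 it was 0.800 and passed (limma, adjusted p = 0.0427), where 994 of 7247 regions passed in either direction, and without replicate 2 it was 0.366 (limma, adjusted p = 0.293). The Pfkl start had a difference of 0.561 ± 0.280 and the Pfkp start one of 0.338 ± 0.235. Without 1 library they were as low as 0.331 for Pfkl (co-culture normoxia replicate 1) and 0.0850 for Pfkp (monoculture normoxia replicate 2), and passed in none of these fits. Ranked by fold enrichment, the differences were 0.120 for Eno1, 0.0822 for Pfkl and 0.0578 for Pfkp, and none of these starts passed. The 95% intervals with all libraries were 0.0836 to 1.17 for Eno1, -0.0638 to 1.19 for Pfkl and -0.187 to 0.863 for Pfkp. Inside the genes, the Hk2 region at 9.9 kb gave 0.234 and the Pfkp region at 23.6 kb -0.405, and neither passed. The difference of the Hk2 region was -0.148 without monoculture normoxia replicate 2 and 0.478 without replicate 1, and it did not pass in either fit. Ranked by fold enrichment, the Hk2 region gave 0.105. The Pfkp region gave -0.793 ranked by fold enrichment and -0.224 without co-culture hypoxia replicate 2, and did not pass in either fit. Without monoculture normoxia replicate 2, 8830 regions had a peak in every other library, and 14 of the 38 could be tested. In that fit the Hk1 start ranked higher with hypoxia, by 0.805 ± 0.190 (SE; limma, adjusted p = 0.0394), as did the Ldha upstream region (adjusted p = 0.0198), beside 4.73% of all regions ranked higher, and 0 of the 14 ranked lower (3.67% of all). The Hk1 start stood at 33.3 in monoculture normoxia, 60.7 and 61.7 in monoculture hypoxia, 49.8 and 52.0 in co-culture normoxia, and 83.2 and 80.8 in co-culture hypoxia. The starts of Hk2, Pgk1 and Aldoa had differences of 0.356 ± 0.222, 0.123 ± 0.286 and 0.245 ± 0.196 in that fit and did not pass.

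Culture was compared in the same ways, and in these comparisons Sox2 and Col1a1 were called in 3 of the 4 co-culture libraries, Nes in 2 and S100b in 1, and none of them in a monoculture library. Their part in the results on culture was not tested. In normoxia, 5 of the 38 regions were gained in co-culture (13.2%, against 12.5% of all regions), near Pfkl, Pfkp, Aldoa, Gapdh and Eno1, and 0 were lost (0.181%). In hypoxia, 4 were gained (10.5%, against 5.83% of all), namely a pair near Hk1 and 1 each near Pfkp and Aldoa, and 0 were lost (3.76%). In normoxia 12 were gained when monoculture normoxia replicate 1 was left out (31.6%, against 20.6% of all) and 9 when co-culture normoxia replicate 1 was (23.7%, against 21.2%). In hypoxia 7 were gained without co-culture hypoxia replicate 2 (18.4%, against 16.8% of all) or monoculture hypoxia replicate 1 (against 8.24%). In hypoxia 2 were lost without co-culture hypoxia replicate 1 (5.26%, against 11.4% of all) and 1 without monoculture hypoxia replicate 2 (2.63%, against 8.12%).

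Of the regions, 2 were gained in co-culture at both oxygen levels (5.26%, against 1.98% of all regions), and 0 were lost (0.027%). The one near Aldoa (chr7:126792183-126792847) lies 2.4 kb past its 3′ end and within 1 kb of the start of Ppp4c, a phosphatase gene, with percentiles of 65.8, 36.3, 26.3 and 52.8 in the 4 co-culture libraries. The other lies 933 bp inside Pfkp (chr13:6647096-6647838), with low percentiles of 9.04, 24.4, 24.8 and 31.7. In equal-number lists 0 regions were gained at both oxygen levels (0.493% of all) or in normoxia (2.37%), and 0 were lost at both levels (0.243%) or in hypoxia (3.4%). There, 2 other regions were gained in co-culture in hypoxia (3.58% of all), the Aldoa start and a region 7.8 kb past Pfkl at the start of Cfap410, and the region over Gm32480 past Hk2 was lost in normoxia (1 of 38, against 1.43% of all).

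Among the regions called in all 8 libraries, 0 of the 8 tested passed for culture in either direction (4.99% of all regions ranked higher and 5.84% lower), and 4 of the 8 had an unadjusted p below 0.05 in the limma fit, as did 2039 of the 6375 regions (32.0%). These were the regions over Gm32480 past Hk2 (-0.824 ± 0.290, SE), 39.6 kb into Hk1 (0.719 ± 0.267), at the Pfkl start (0.715 ± 0.280) and at the Eno1 start (0.549 ± 0.243). Without co-culture normoxia replicate 2, the difference over Gm32480 was -0.521. Without monoculture normoxia replicate 2, that of the Eno1 start was 0.315. Ranked by fold enrichment, the Pfkl start gave 0.341 and the Eno1 start 0.298. Without monoculture normoxia replicate 2, the Aldoa start became testable. It stood at 17.4 in monoculture normoxia, 14.7 and 19.97 in monoculture hypoxia, 53.8 and 48.2 in co-culture normoxia, and 68.3 and 71.6 in co-culture hypoxia, with no overlap between cultures. The difference was 1.22 ± 0.196 (SE; limma, adjusted p = 0.0246), beside 5.38% of regions ranked higher. The Hk2 region at 9.9 kb had a difference of -0.541 ± 0.286 with all 8 libraries (SE; limma, adjusted p = 0.220). It ranked lower in co-culture without monoculture normoxia replicate 2, by -0.858 ± 0.229 (SE; limma, adjusted p = 0.0494), beside 4.63% of regions ranked lower, and passed in none of the other fits (-0.253 without replicate 1 of that group). The monoculture normoxia group has 1 library in that fit, whose spread is taken from the other groups. The interaction of oxygen with culture passed for 0 of the 8 regions and for 0 of all 6375 (0.0%), with 625 unadjusted p below 0.05 over all regions in limma and 0 among the 8.

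Another 22 enzymes of the same steps, with 29 regions, were taken as a list for comparison. Of 18 with a start entry, 3 had a start peak in all 8 libraries (19.3% of coding genes), 6 in at least 7 (28.0%), and 10 in none (49.4%). With hypoxia, 4 of the 29 regions were gained in monoculture (17.7% of all regions) and 0 lost (0.179%), and 1 was gained (6.09%) and 1 lost (2.05%) in co-culture. With co-culture, 3 were gained in normoxia (12.5% of all) and 1 in hypoxia (5.83%). In equal-number lists, hypoxia gained 0 of the 29 in monoculture (3.59% of all) and 1 in co-culture (2.64%), and lost 1 in each culture (2.49% and 2.78%). The lost region was the same in each, within 1 kb of a start of Pfkm and also of Senp1. It was thus lost in both cultures (1 of 29, against 0.436% of all). Co-culture in equal-number lists gained 0 in normoxia (2.37%) and 1 in hypoxia (3.58%), and lost 0 at either oxygen level (1.43% and 3.4%). The start of Pkm, whose pyruvate kinase makes pyruvate, was called in all 8 libraries, at 43.8, 26.1, 84.6, 86.5, 90.1, 79.5, 97.2 and 94.4. The start of Tpi1, which encodes triose phosphate isomerase, was called in the 2 co-culture normoxia libraries alone, at 32.0 and 30.6, and so was counted as lost with hypoxia in co-culture and as gained with co-culture in normoxia.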

How the data were processed

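ATAC-seq peak lists of 8 BV2 libraries were used, 1 per library and called separately. The submitters' processing notes name Trimmomatic 0.36, HISAT2 2.1.0, Picard, SAMtools, deepTools and MACS2 2.1.1.2 with build mm10. Settings, Tn5 shift and duplicate handling are not given in the sources used here. Per the file values, each list holds the authors' fold enrichment (a ratio), −log10 p, −log10 q, a score and a summit offset per peak; all deposited −log10 q lie above 2. The authors' deposited −log10 p ranked the peaks, the deposited fold ratio served an alternative, and the deposited −log10 q set the stricter list. The deposited score was not used.

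Genes, starts and sequences came from RefSeq tables of GRCm38.p6, in which all 10 genes matched. Presence calls, percentiles and ranks were computed as described with the results. Summit fragments and background were solved from fold and Poisson p to within 0.001 for all peaks with a −log10 p up to 250, and count fragments only, since reads were not used. Fits used limma 3.58.1 in R 4.3.3 without a replicate block, and were tested on simulated data. Regions were handled in pandas 2.3.3 and numpy 2.4.6 under Python 3.11.15, fragments were solved with scipy 1.17.1, and plots were drawn with matplotlib 3.10.9.

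All 10 genes are named, with the region at the start of each, the regions gained or lost and those past the threshold of limma. The members and lists were chosen with earlier results of these data known. Alternatives were equal-number lists, thinned lists, a −log10 q of at least 5, windows of 250 bp on each side of summits, a distance of 2 kb, ranks by fold, a replicate block, and each library left out. No library was left out of the main results.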

Additional observations from a re-analysis of the deposited data

How the results depend on the processing

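Of 78 alternative values of the 17 counts of regions, leaving no library out, 62 stayed within 1.5 times the reported count. Equal-number lists gave 0 regions gained with hypoxia in monoculture, in co-culture or in both (3, 3 and 1 reported), 0 lost with hypoxia in co-culture (1 reported), 0 gained and 1 lost with co-culture in normoxia (5 and 0 reported), 2 gained with co-culture in hypoxia (4 reported) and 0 gained with co-culture at both oxygen levels (2 reported). A −log10 q of at least 5 gave 5 gained with hypoxia in monoculture (18.7% of all regions) and 1 gained with co-culture at both oxygen levels (1.82% of all). Within 2 kb of the genes 26 regions remain. Of them, 2 were gained with co-culture in normoxia (12.5% of all regions), 2 in hypoxia (5.83%) and 1 at both oxygen levels (1.98%). Within that distance 1 ranked higher with hypoxia (4.83% of all regions tested), since the regions near Ldha and past Hk2 lie farther out. Ranks by fold gave 0 ranked higher with hypoxia, and over all 6375 regions 54 calls against 643; the cause was not tested.

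The labels give same-numbered libraries of different groups a common replicate number and name no batch. Their residual correlations were -0.04 to 0.176. With 2 libraries per group, differently numbered pairs mirror these values, so whether same-numbered libraries share a batch was not tested. With the replicate block, 1 region ranked higher with hypoxia, the one upstream of Ldha (limma, adjusted p = 0.0199), while Hk1 (0.0530) and Hk2 (0.0554) did not pass. The block gave 602 calls over all regions.

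Leaving out 1 library gave 4 to 10 regions gained with hypoxia in monoculture (21.3% to 30.2% of all) and 1 lost (0.306% to 1.91%). In co-culture, 4 to 8 were gained (9.27% to 20.6% of all) and 1 to 2 lost (2.81% to 6.82%). With co-culture in normoxia, 6 to 12 were gained (15.5% to 21.4%) and 0 lost (0.481% to 2.56%). With co-culture in hypoxia, 6 to 7 were gained (8.24% to 16.8%) and 0 to 2 lost (4.81% to 11.4%). With hypoxia in both cultures, 1 to 2 were gained (2.2% to 4.45%) and 0 lost (0.0221% to 0.123%). With co-culture at both oxygen levels, 2 to 3 were gained (2.03% to 2.77%) and 0 lost (0.0343% to 0.208%). Fewer libraries must then hold or lack a peak. Ranked regions numbered 0 to 3 higher and 0 lower with hypoxia, 0 to 1 in each direction with co-culture, and 0 for the interaction. Over all regions, calls for hypoxia fell to 0 without monoculture hypoxia replicate 1 and rose to 994 without monoculture normoxia replicate 1. A missing peak is one below the threshold at that depth.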
